A study of Mus musculus with 172 samples.

Results

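Transcripts of 50 lysosomal genes were followed in single cells of mouse inner cell masses (ICMs) with and without OCT4, the pluripotency factor encoded by Pou5f1. The genes were chosen by name as lysosomal hydrolases, their activators and lysosomal membrane or sorting proteins, and 50 of 50 symbols were found among the 49671 genes of the count tables. Earlier results of these data were known when they were chosen, so the shares called below describe this list and are not an independent test. They fall into 5 groups by role. There were 10 genes for sphingolipid and ganglioside degradation, 10 cathepsins and other proteases, 10 for glycogen, glycoprotein and glycosaminoglycan degradation, 7 lipases, thioesterases and other soluble proteins, and 13 membrane and sorting proteins. Embryos came from matings between mice heterozygous for a constitutive Oct4 deletion, so a mutant (MUT) embryo lacked the gene in every cell, trophectoderm included. The ICM was isolated by immunosurgery, the genotype was read from the lysed trophectoderm, and single cells were sequenced as full-length cDNA by Smart-seq2, which amplifies polyadenylated RNA and here carried no molecular identifiers. At E3.5, 29 MUT cells of 4 embryos were compared with 58 cells of 7 wild-type (WT) or heterozygous (HET) embryos, made up of 42 WT cells of 5 embryos and 16 HET cells of 2. At E4.5, 19 MUT cells of 2 embryos (embryos 3 and 8) were compared with 37 epiblast (EPI) and 29 primitive endoderm (PrE) cells of the same 6 embryos, 4 HET and 2 WT. The authors assigned EPI and PrE from these transcriptomes, and E4.5 MUT cells formed a class of their own. The embryo was the replicate: the counts of all cells from an embryo and class were added up, and p-values measure the spread between these sums. A sum held 2 (PrE of embryo 6) to 11 cells (MUT embryo 3), so this spread holds cell sampling as well as differences between embryos.

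Lysosomes are acidic organelles in which hydrolases take apart material delivered by endocytosis and autophagy. Most of these enzymes are made in the endoplasmic reticulum, tagged with mannose 6-phosphate in the Golgi and carried onward by the receptors that Igf2r and M6pr encode. Heavily glycosylated proteins such as LAMP1 and LAMP2 line the membrane, while saposins and the GM2 activator lift glycolipids out of membranes for the enzymes. Many lysosomal genes carry E-box-like sites upstream that are read by TFEB and its relatives. In the early embryo, visceral endoderm, which descends from PrE, is known for intense endocytosis and lysosomal digestion of maternal nutrients.

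Embryo sums held 2736296 to 17453036 counts, and the 9 cells under 0.5 of the median of their stage were kept. The targeted gene followed the labels: Pou5f1 was 199 to 435 CPM (counts scaled to a common library total, with TMM factors) in E3.5 WT/HET embryos, 2.73 to 5.93 in E3.5 MUT, 70.2 to 242 in EPI, 46.8 to 152 in PrE and 0 in both E4.5 MUT embryos. The summed level of 11 epiblast markers averaged 3346 CPM in EPI and 265 in PrE, and that of 14 PrE markers 466 and 9231 CPM. In E4.5 MUT these sums were 499.5 and 1178 CPM for epiblast markers and 1638 and 2140 for PrE markers. The summed level of 14 trophectoderm markers was 302 to 1074 CPM in WT/HET and 1346 to 2374 in MUT at E3.5, 175 to 449 in EPI, 895 to 1829 in PrE, and 8885 and 10298 in the E4.5 MUT embryos. None of the 14 was at 0 in E4.5 MUT, where 7 were higher than in EPI and 4 higher than in PrE, and 4 were higher in MUT at E3.5. Hand1, Cldn4 and Fabp3 passed in each of these, while Cdx2 averaged 11.4 CPM in E4.5 MUT. The 7 trophoblast giant cell markers, among them the cathepsin genes Ctsq, Cts7 and Cts8, were at 0 in E4.5 MUT. At E3.5 the summed level of the PrE markers was 445 to 706 CPM in MUT and 162 to 396 in WT/HET, with 3 of 11 tested called higher and 1 lower, 4 of 9 epiblast markers were lower, and 1 of 2 giant cell markers was higher. Trophectoderm marker levels thus moved with every MUT comparison below, PrE and epiblast markers moved as well, and the part of these in the lysosomal results was not tested. Each stage was on its own plate, so stage and plate cannot be told apart.

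Promoters are shown because CACGTG, the E-box core that TFEB and its relatives read, stood upstream of several of these genes. RefSeq (GRCm38.p6) gave a start site for 43 of the 50. The motif, a palindrome and so the same on both strands, lay within 250 bases upstream of the start in 14 of the 43 (32.6%), against 6.86% of 27018 genes with a promoter entry. The 14 were Arsa, Cln3, Ctsa, Ctsd, Ctsl, Gaa, Gla, Glb1, Igf2r, Lamp1, Lgmn, Mcoln1, Naglu and Sgsh. In the 4 windows printed here, which end at the base before the start site, capitals mark CACGTG. Glb1, Gm2a and Psap are shown as genes called higher in E4.5 MUT against each lineage, and Lamp1 was picked after the positions were seen, for its 4 copies at -61, -45, -28 and -15. The windows are chr8:13158911-13159160 for Lamp1, chr9:114400828-114401077 for Glb1, chr11:55097735-55097984 for Gm2a and chr10:60277378-60277627 for Psap, all on the plus strand.
Lamp1: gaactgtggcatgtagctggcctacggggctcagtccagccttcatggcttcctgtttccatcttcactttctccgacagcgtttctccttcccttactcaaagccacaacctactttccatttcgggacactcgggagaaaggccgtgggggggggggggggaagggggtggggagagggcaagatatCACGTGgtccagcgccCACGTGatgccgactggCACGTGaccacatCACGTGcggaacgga
Glb1: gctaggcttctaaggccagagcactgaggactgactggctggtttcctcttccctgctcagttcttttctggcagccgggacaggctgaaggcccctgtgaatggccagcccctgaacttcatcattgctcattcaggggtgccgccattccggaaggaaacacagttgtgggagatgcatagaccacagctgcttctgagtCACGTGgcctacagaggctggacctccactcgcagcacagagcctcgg
Gm2a: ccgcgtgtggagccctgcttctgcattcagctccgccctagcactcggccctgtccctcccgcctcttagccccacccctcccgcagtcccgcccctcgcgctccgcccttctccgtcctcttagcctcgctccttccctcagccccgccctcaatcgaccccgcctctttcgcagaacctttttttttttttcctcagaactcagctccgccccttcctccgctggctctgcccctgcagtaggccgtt
Psap: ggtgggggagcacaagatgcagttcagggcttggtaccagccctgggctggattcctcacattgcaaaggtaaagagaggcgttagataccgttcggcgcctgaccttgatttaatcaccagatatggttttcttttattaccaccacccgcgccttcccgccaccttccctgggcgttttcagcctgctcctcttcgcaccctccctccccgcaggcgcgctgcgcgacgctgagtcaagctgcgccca
The Glb1 copy begins 48 bases before the start. These letters were not found in the Gm2a or Psap windows, nor in those of Cd63, Npc2, Pld3 or Fuca1. The start that RefSeq lists for Gm2a lies upstream of the gene as annotated here.

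Together the 50 genes took up more of the E4.5 MUT libraries than of any other class. Their summed level was 28997 and 29355 CPM in the MUT embryos, against 4198 ± 794 (SD, n = 6) in EPI and 12008 ± 2607 (n = 6) in PrE. At E3.5 it was 14245 ± 690 (n = 4) in MUT and 9452 ± 636 (n = 7) in WT/HET. Every MUT embryo lay above the embryos it was compared with at both stages, since the sums spanned 8116 to 9975 CPM in WT/HET, 13236 to 14719 in E3.5 MUT, 3365 to 5390 in EPI and 8263 to 14505 in PrE. These levels are on the TMM scale. As a share of the total counts the 50 genes averaged 2.93% in E4.5 MUT, 0.454% in EPI, 1.24% in PrE, 1.27% in E3.5 MUT and 0.922% in WT/HET, so that E3.5 MUT was less far above WT/HET than on the TMM scale. The amount of RNA per cell cannot be read from either. The sphingolipid group alone averaged 11341 CPM in E4.5 MUT, against 694 in EPI and 1365 in PrE. Most of this MUT level was Psap and Gm2a, at 5597 and 3824.5 CPM. They averaged 196 and 93.4 CPM in EPI and 219 and 53.0 in PrE. Against PrE, the means of Asah1 (192 and 381 CPM) and Arsa (1.71 and 19.7) were lower in MUT. Those of Hexa, Galc, Gla, Glb1, Neu1 and Smpd1 were higher. The proteases averaged 8459 in MUT (8114 and 8805) and 6967 in PrE (4021 to 8702), with overlapping ranges. In single cells the mean log2(CPM + 1) of the proteases, averaged over embryos, was 6.98 in MUT and 7.54 in PrE. Over all 50 genes the embryo means of this measure overlapped at E3.5, at 4.79 to 5.36 in MUT and 4.92 to 5.36 in WT/HET. Without Gm2a, Psap, Cd63 and Ctsl, which were set aside after their levels were seen, the sums were 11206 and 10622 CPM in MUT, 2503 to 3613 in EPI and 4898 to 9169 in PrE.

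**Figure D1:**
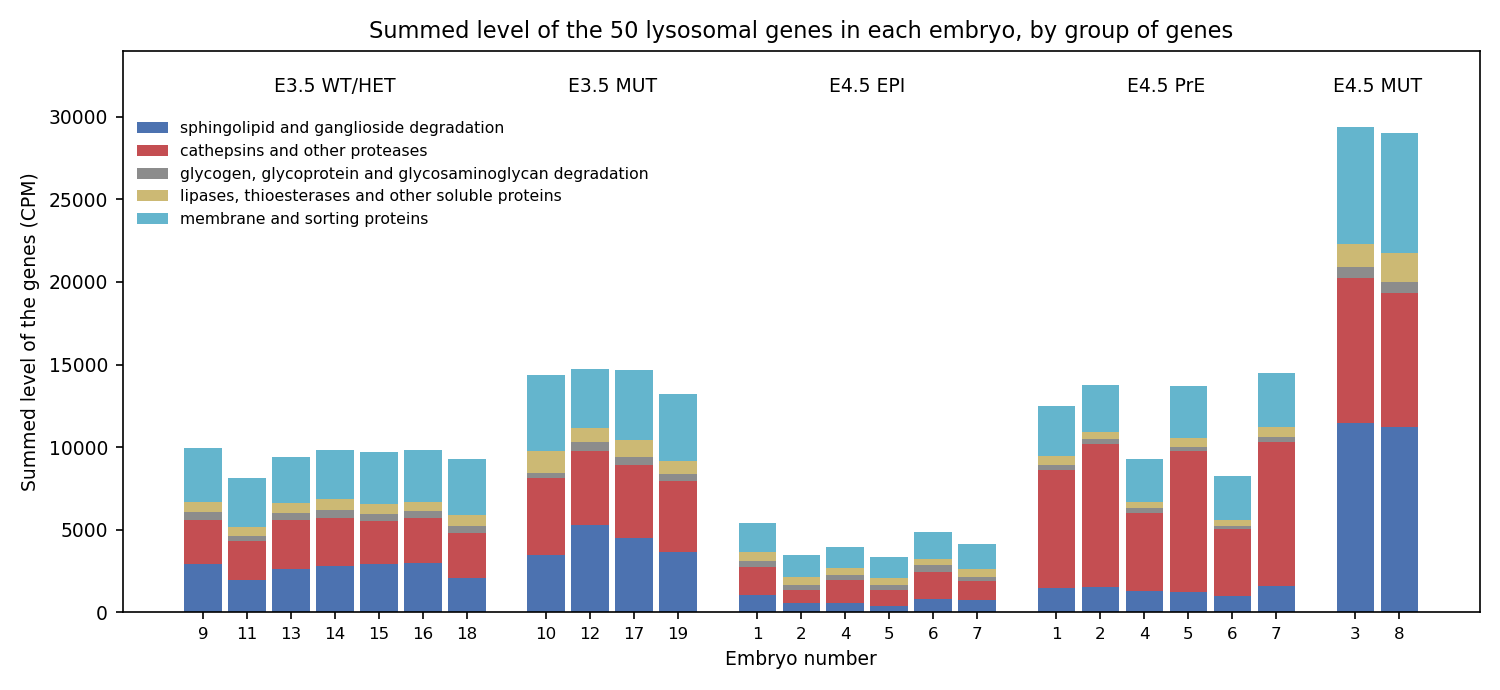
Summed CPM (y axis) of the 50 genes in each embryo (1 bar each, grouped by class), stacked by the 5 role groups. The E4.5 MUT bars reach 28997 and 29355 CPM, with the sphingolipid group as the largest block, while in PrE the proteases are the largest block.

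Per kilobase of exon (FPKM, the scale used to compare genes), the leading genes differed between classes. Psap, the precursor of the saposins that help hydrolases reach sphingolipids, led in WT/HET (mean 547 FPKM) and E3.5 MUT (865). Lamp1 (398 and 431 FPKM) and Cd63, a tetraspanin of late endosomes (254 and 433), were next, with Ctsd and Hexa completing the leading 5. In EPI, Lamp1 (157 FPKM), Cd63 (151), Psap (71.5), Hexa (70.1) and Ctsa (63.7) led at lower levels. PrE was led by the cathepsin genes Ctsz (893 FPKM) and Ctsl (496), with Lamp1 (377), Cd63 (326) and Lgmn (243) next. E4.5 MUT was headed by Psap (2040 FPKM), Cd63 (1306) and Gm2a (927), then Ctsl (621) and Lamp1 (481). Some neighbours in these orders were within their spread, such as Lamp1 and Cd63 in EPI (157 ± 14.6 and 151 ± 33.2 FPKM). At the low end, Ctss, a cathepsin of antigen-presenting cells, had no count in any of 172 cells, and Lipa, Sort1, Arsb, Sgsh and Galc averaged under 1 FPKM in every class.

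Gm2a and Psap were the most elevated of the genes called in E4.5 MUT. Gm2a (ENSMUSG00000000594, chr11:55098115-55113029), which encodes the activator that presents GM2 ganglioside to hexosaminidase A, was 3722 CPM in MUT embryo 3 and 3927 in embryo 8. In EPI it was 65.6 to 144 CPM (median 76.2), and in PrE 5.21 to 84.7 (median 59.6). Every MUT value thus lay far above every EPI and PrE value. The log2 fold change was 5.33 (SE 0.30, adjusted p = 3.17e-05) against EPI and 6.17 (SE 0.63, adjusted p = 0.000845) against PrE by edgeR. Psap (ENSMUSG00000004207, chr10:60277627-60302597) was 6113 and 5081 CPM in MUT, 87.2 to 311 (median 191) in EPI and 138 to 339 (median 214) in PrE, again with no overlap. Its log2 fold change was 4.81 (SE 0.42, adjusted p = 0.00038) against EPI and 4.68 (SE 0.31, adjusted p = 8.75e-05) against PrE. Single cells showed the same separation. On each cell's own total, Gm2a ranged from 1337 to 11450 CPM over the 19 MUT cells and did not exceed 251 in any EPI cell or 164 in any PrE cell. For Psap the lowest MUT cell had 1253 CPM, above the highest of the 37 EPI cells (665) and of the 29 PrE cells (1060).

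**Figure D2:**
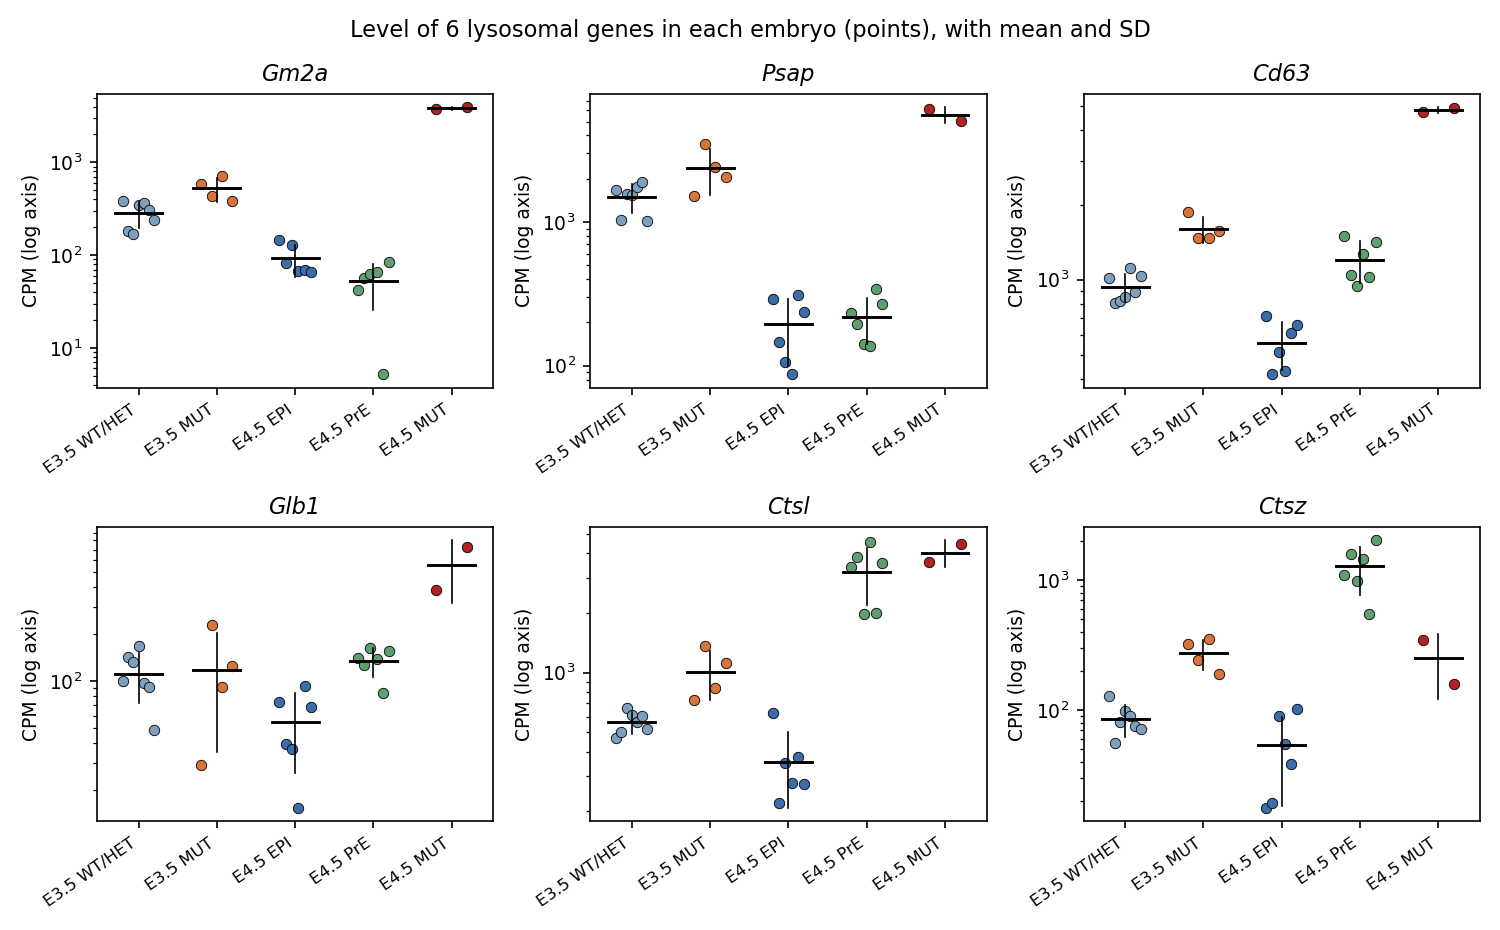
CPM on a log axis (y) of Gm2a, Psap, Cd63, Glb1, Ctsl and Ctsz in each embryo (points), by class, with the class mean and SD. Gm2a and Psap separate E4.5 MUT from both lineages, Ctsl is as high in some PrE embryos as in E4.5 MUT, and Ctsz is highest in PrE.

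Against EPI, 15 of the 48 genes tested were higher in MUT and 1 was lower. The background was 4.92% of 12953 genes called, 2.3% higher and 2.62% lower. The median log2 fold change was 1.77, against -0.03 over all genes, and 43 of 48 were positive. Of the 10 sphingolipid genes 6 rose. Besides Gm2a and Psap these were Gla, Glb1, Neu1 and Hexa, which encode alpha-galactosidase A, acid beta-galactosidase, lysosomal sialidase and the alpha subunit of hexosaminidase. Gla was 230 and 276 CPM in MUT and 16.3 to 45.2 (median 23.1) in EPI (log2 fold change 3.25, SE 0.36, adjusted p = 0.00118). Glb1 was 387 and 730 CPM against 15.4 to 93.6 (median 54.0) (3.32, SE 0.52, adjusted p = 0.00643). The MUT values of both lay above every EPI value, but without embryo 8 the Glb1 call was lost (2.81, adjusted p = 0.0669). Hexa was 532 and 571 CPM against 95.9 to 223 (1.95, SE 0.29, adjusted p = 0.0057), and Neu1 was 166 and 216 against 22.4 to 61.4 (2.26, SE 0.44, adjusted p = 0.0197). The Neu1 call was lost without embryo 3 or embryo 8 (adjusted p = 0.0898 and 0.143). Smpd1, acid sphingomyelinase, was 111 and 223 CPM in MUT and 0 to 10.3 (median 0) in EPI, and did not pass (5.49, SE 1.81, adjusted p = 0.118).

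Among the 9 proteases tested, 4 rose against EPI. Ctsl, a cysteine protease of broad range, was 3596 and 4464 CPM in MUT and 219 to 628 (median 314) in EPI (log2 fold change 3.48, SE 0.31, adjusted p = 0.000416). Ctsa, the protective protein that holds the GLB1 and NEU1 enzymes in a complex, was 2938 and 1545 CPM against 106 to 421 (median 299) (2.87, SE 0.40, adjusted p = 0.00374). Ctsb, another cysteine protease, was 777 and 826 CPM against 130 to 238 (2.16, SE 0.26, adjusted p = 0.00174). None of these ranges overlapped. The aspartic protease gene Ctsd was 349 and 441 CPM against 78.0 to 194 (1.55, SE 0.32, adjusted p = 0.0268). Ctsa lost its call without embryo 3 (2.34, adjusted p = 0.0544), and Ctsd without embryo 3, 7 or 8 (adjusted p = 0.103, 0.0554 and 0.183). Ctsz, Lgmn, Ctsc, Tpp1 and Ctsh had log2 fold changes of 2.20, 2.04, 1.43, 1.28 and 2.44 and did not pass (adjusted p from 0.076 to 0.671).

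The other groups gave fewer calls against EPI. Fuca1, the alpha-fucosidase that trims glycoproteins, was 224 and 300 CPM in MUT and 17.3 to 28.4 (median 18.8) in EPI (log2 fold change 3.59, SE 0.30, adjusted p = 0.000274), the single gene called higher of 9 tested in its group. Manba, beta-mannosidase, was the single gene of the 48 called lower: it was 35.2 and 6.2 CPM in MUT and 150 to 247 (median 219) in EPI (-3.38, SE 0.62, adjusted p = 0.0154), a call lost when MUT, EPI and PrE were fitted together (adjusted p = 0.105). Npc2, the soluble cholesterol carrier, was 840 and 658 CPM against 216 to 314 (1.46, SE 0.19, adjusted p = 0.00261). Pld3, a lysosomal nuclease, was 374 and 665 CPM against 49.9 to 130 (2.56, SE 0.33, adjusted p = 0.00242). Of 13 membrane and sorting genes 2 rose. Cd63 was 4717 and 4903 CPM against 417 to 713 (3.08, SE 0.20, adjusted p = 5.63e-05), and Lamp1 was 1263 and 1310 against 378 to 472 (1.59, SE 0.15, adjusted p = 0.00051). Lamp2, which takes part in autophagosome fusion and chaperone-mediated autophagy, was 327 and 101 CPM against 12.2 to 90.8 (median 18.1), but did not pass (2.62, SE 0.75, adjusted p = 0.076). Sort1, a sorting receptor, was 1.28 and 4.11 CPM in MUT, from 22 and 51 counts, and 0 in EPI. It was near the floor and did not pass (4.09, SE 0.88, adjusted p = 0.0764). Ctss and Arsb were not tested.

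Against PrE, 8 of 47 genes tested were higher in MUT and 1 was lower, with 3.81% of 12246 genes called, 1.74% higher and 2.07% lower. The median log2 fold change was 0.92, against 0.05 over all genes. These fold changes share the MUT sums with those against EPI. Besides Gm2a and Psap, Glb1 rose in the sphingolipid group, at 387 and 730 CPM in MUT and 83.7 to 162 (median 140) in PrE (2.06, SE 0.29, adjusted p = 0.0048). Other genes of this group had lower values in MUT than in any PrE embryo without passing. Asah1, acid ceramidase, was 169 and 215 CPM in MUT and 241 to 512 in PrE (-0.98, SE 0.32, adjusted p = 0.126). Arsa, arylsulfatase A, was 0.805 and 2.62 CPM against 7.02 to 42.6 (-3.36, SE 1.19, adjusted p = 0.173). DESeq2 called 5 of the group higher and 2 lower, against 443 higher and 776 lower of all 12246 genes. Pld3 was 44.2 to 84.4 CPM in PrE (3.08, SE 0.29, adjusted p = 0.000499), Cd63 940 to 1500 (2.01, SE 0.19, adjusted p = 0.000499), and Npc2 193 to 353 (1.42, SE 0.25, adjusted p = 0.0134). Ctsa was 362 to 892 CPM in PrE (1.92, SE 0.35, adjusted p = 0.0166) and Fuca1 32.8 to 106 (1.95, SE 0.37, adjusted p = 0.0205). For each of these the MUT embryos lay above the PrE range. Ctsz, a carboxypeptidase of the cathepsin family, was the gene that fell, from 549 to 2025 CPM (median 1278) in PrE to 344 and 160 in MUT (-2.34, SE 0.52, adjusted p = 0.0398).

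The remaining genes did not pass against PrE, some with overlapping values and some without. Ctsl was 1981 to 4557 CPM in PrE, a range that holds the 3596 and 4464 of MUT (log2 fold change 0.33, SE 0.31, adjusted p = 0.716), and Neu1, at 51.7 to 266 CPM in PrE, overlapped too (0.44, SE 0.56, adjusted p = 0.817). Both MUT embryos lay above every PrE embryo for Lamp1, Hexa, Ctsb, Ctsd, Gla, Smpd1, Lamp2, Gaa, Naglu, Laptm4b, Cln3 and Ctns. With the called genes, 20 of the 50 lay above PrE in this way and 3 below. The share of all genes with such separation is not given here. Lamp1 was 938 to 1049 CPM in PrE (0.36, SE 0.13, adjusted p = 0.198) and Hexa 159 to 501 (0.73, SE 0.41, adjusted p = 0.42). Ctsb, Ctsd and Gla had log2 fold changes of 0.92, 0.82 and 2.03 and did not pass (adjusted p = 0.0997, 0.0794 and 0.0579), nor did Lamp2, at 8.56 to 78.1 CPM in PrE (2.54, SE 0.66, adjusted p = 0.0691). The Ctsz call against PrE was lost when any embryo but embryo 6 was left out (adjusted p from 0.0574 to 0.225). Without embryo 3, 5 genes were called and Ctsa, Fuca1 and Npc2 were lost (adjusted p = 0.176, 0.0786 and 0.116), and without embryo 8, 6 were called and Glb1 and Fuca1 were lost (0.0687 and 0.177). With the WT embryos as the only controls, edgeR called 3 of the 50 genes against EPI (Gm2a, Ctsl and Cd63) and 0 against PrE, where 18 of 45 had an unadjusted p under 0.05. Over all genes it called 48 of 11644 against EPI and 27 of 10667 against PrE, where 1964 had an unadjusted p under 0.05. With the full controls DESeq2 called 17 against PrE, 14 higher and 3 lower, against 443 higher and 776 lower of all 12246 genes.

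Genes whose products act together are set side by side here, and the differences between partners were not tested. The log2 fold changes of Hexa and Gm2a, whose products meet in GM2 breakdown, were 1.95 and 5.33 against EPI, and 0.73 and 6.17 against PrE. Within the complex of Ctsa, Glb1 and Neu1 they were 1.92, 2.06 and 0.44 against PrE. Npc2 hands cholesterol to the membrane protein NPC1. The Npc1 gene was 41.2 and 77.5 CPM in MUT, 3.36 to 57.5 in EPI and 14 to 84.6 in PrE, so its values overlapped both lineages (1.59 and 0.60, adjusted p = 0.414 and 0.791). Of the mannose 6-phosphate receptor genes, M6pr was 248 and 211 CPM in MUT and 153 to 231 in EPI (0.33, SE 0.24, adjusted p = 0.505), while Igf2r was 43.2 and 98.8 against 10.3 to 23.6 (2.05, SE 0.53, adjusted p = 0.0572).

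**Figure D3:**
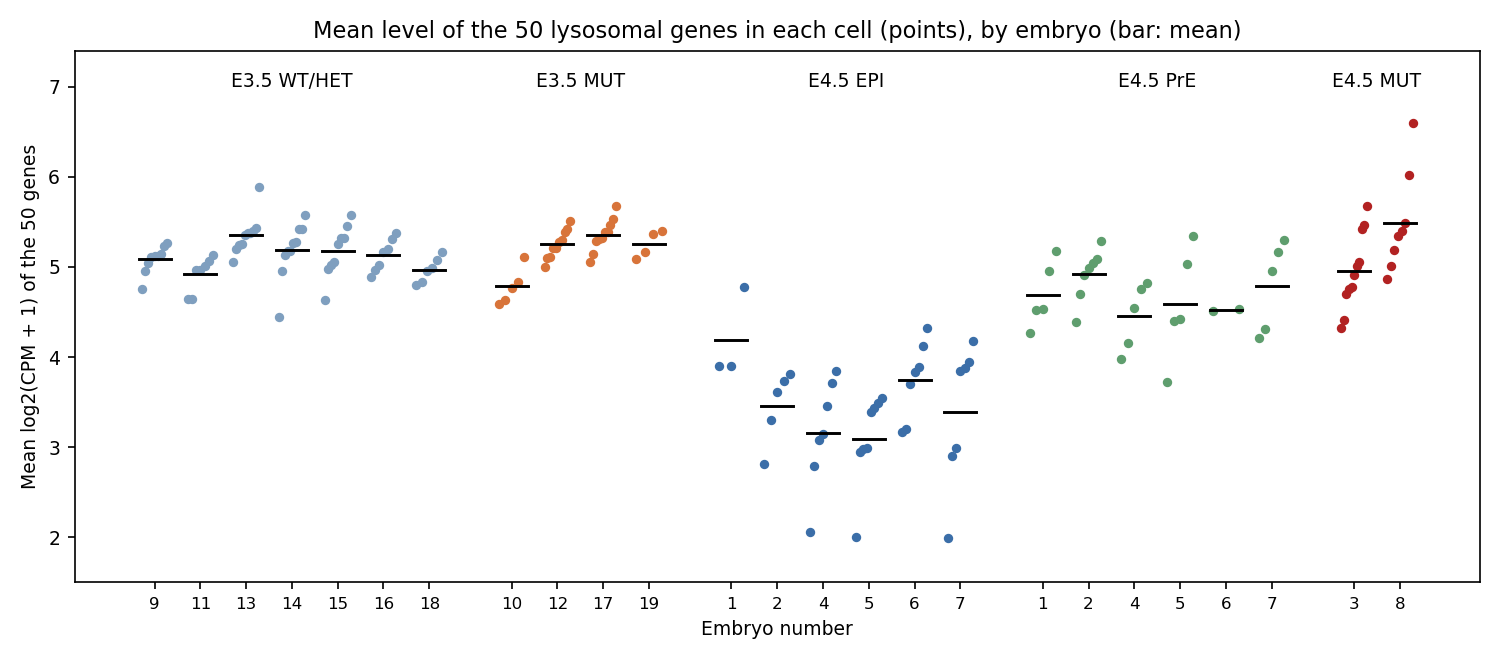
Mean log2(CPM + 1) of the 50 genes in single cells (points, y axis), by embryo and class, with CPM on each cell's own total. Embryo means were 3.10 to 4.19 in EPI, 4.45 to 4.92 in PrE and 4.96 and 5.49 in E4.5 MUT, and those of E3.5 WT/HET (4.92 to 5.36) and MUT (4.79 to 5.36) overlapped.

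In single cells the number of genes detected was also counted. A cell had a count for a median of 39 of the 50 genes in WT/HET, 38 in E3.5 MUT, 29 in EPI, 34 in PrE and 33 in E4.5 MUT. Genes found in every cell of a class numbered 27, 25, 4, 13 and 14 in the same order. Smpd1 was detected in 58 of 58 WT/HET and 29 of 29 E3.5 MUT cells, 5 of 37 EPI, 13 of 29 PrE and 15 of 19 E4.5 MUT cells. Manba was found in 36 of 37 EPI cells but 10 of 29 PrE, 6 of 19 E4.5 MUT, 2 of 29 E3.5 MUT and 0 of 58 WT/HET cells. Median counts per cell were 1318327 to 1772045 over the classes. The median number of all genes detected in a cell was also lower at E4.5. It was 9397.5 in WT/HET, 8890 in E3.5 MUT, 6965 in EPI, 7169 in PrE and 6514 in E4.5 MUT.

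At E3.5, where WT/HET cells were kept as 1 class, 13 of 44 genes tested were higher in MUT and 0 were lower by edgeR, against 6.18% of 12075 genes called, 3.2% higher and 2.98% lower. At an unadjusted p under 0.05, 18 were higher and 4 lower, and DESeq2 called 16 higher and 2 lower. Over all 12075 genes, 2588 had an unadjusted p under 0.05, and DESeq2 called 717 higher and 890 lower. The median log2 fold change was 0.33, against -0.02 over all genes, and 30 of 44 were positive. The proteases gave 5 calls of 9. Ctsz was 321, 243, 350 and 190 CPM in MUT embryos 10, 12, 17 and 19 and 56.3 to 129 (median 81.1) in WT/HET (1.71, SE 0.22, adjusted p = 0.00185). Ctsb was 392, 413, 362 and 453 CPM against 145 to 318 (median 171) (1.07, SE 0.20, adjusted p = 0.00911). Ctsl was 725, 1357, 837 and 1114 CPM against 468 to 663 (median 563) (0.86, SE 0.16, adjusted p = 0.00882). In each, every MUT embryo lay above every WT/HET embryo. The same held, narrowly, for Ctsc, a dipeptidyl peptidase that activates other proteases, at 1565, 703, 966 and 1159 CPM against 507 to 702 (0.91, SE 0.19, adjusted p = 0.0136). Ctsa was 952, 890, 952 and 574 CPM against 435 to 607 and overlapped (0.75, SE 0.15, adjusted p = 0.0136). Of these 5, Ctsz alone passed under every alternative. The call was lost for Ctsl with scaling by total counts (adjusted p = 0.0513), for Ctsb with cells weighted equally (0.0508), for Ctsc against the WT embryos alone (0.0556) and for Ctsa with total counts or WT controls (0.0569 and 0.0581).

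Outside the proteases, E3.5 MUT embryos were higher for Cd63, Npc2 and Ppt2 with no overlap. Cd63 was 1873, 1465, 1470 and 1561 CPM against 805 to 1115 (median 892) (log2 fold change 0.79, SE 0.13, adjusted p = 0.00519). Npc2 was 803, 437, 530 and 434 CPM against 220 to 338 (median 250) (1.07, SE 0.20, adjusted p = 0.00825). Ppt2, a thioesterase, rose from 1.91 to 17.3 CPM in WT/HET to 99.5, 25.1, 56.8 and 23.5 (2.44, SE 0.55, adjusted p = 0.0226), and 36.6% of its exon sequence is shared with other annotated genes. Laptm4a (0.78, adjusted p = 0.0202) and Igf2r (1.42, adjusted p = 0.0265) of the membrane group also passed, as did Hexa (0.88, adjusted p = 0.029), the phospholipase gene Pla2g15 (1.25, adjusted p = 0.0319) and Smpd1 (1.25, adjusted p = 0.0376). Embryo 10 was the highest for the last 2, with 627 CPM of Smpd1 against 227, 392 and 158 in the other MUT embryos and 111 to 206 in WT/HET. Its 268 CPM of Pla2g15 compared with 85.8, 153 and 71.1 in the other MUT embryos and 49.1 to 75.8 in WT/HET. Without embryo 10, 8 genes were called in place of 13, with adjusted p = 0.133 for Smpd1, 0.107 for Pla2g15, 0.0918 for Ppt2, 0.067 for Laptm4a and 0.102 for Igf2r. Smpd1 was lost on leaving out any of 8 embryos, Pla2g15 any of 7 and Hexa any of 4 (0.0986 without embryo 17), Ppt2 also without embryo 17 (0.0545) and Igf2r without embryo 15 (0.0525). Hexa, Smpd1 and Pla2g15 were also lost with total counts, with cells weighted equally and against the WT embryos alone, Ppt2 and Igf2r against the WT embryos alone (0.0795 and 0.0872), and Laptm4a with cells weighted equally (0.118).

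The remaining genes did not pass at E3.5. Gm2a was 588, 431, 720 and 382 CPM in MUT and 169 to 382 (median 306) in WT/HET (log2 fold change 0.92, SE 0.25, adjusted p = 0.0509), and was called by DESeq2 (adjusted p = 0.00938). Psap was 1528, 3516, 2396 and 2053 CPM against 1009 to 1905 (0.67, SE 0.22, adjusted p = 0.0914). Both overlapped between the groups. Lamp2 was 661, 240, 484 and 264 CPM against 222 to 586 (0.05, SE 0.31, adjusted p = 0.955), and its sign turned with scaling by total counts (-0.13). Of the 7 genes tested for glycogen, glycoprotein and glycosaminoglycan degradation, edgeR called 0, with 1 at an unadjusted p under 0.05, DESeq2 called 1 lower, and the median was -0.75. Among them Man2b1, alpha-mannosidase, was 7.23 to 18.9 CPM in MUT and 18.7 to 63.2 in WT/HET (-1.34, SE 0.39, adjusted p = 0.0621). Of the 12 membrane genes tested, 5 were higher and 2 lower at an unadjusted p under 0.05, and DESeq2 called 4 higher and 1 lower. Over all 12075 genes, 2588 had such a p and DESeq2 called 717 higher and 890 lower. The lower 2 were Laptm4b (-1.41, SE 0.41, adjusted p = 0.0631) and Mcoln1 (-1.10, SE 0.44, adjusted p = 0.16). Among the proteases, Tpp1 was lower without passing (-0.64, SE 0.26, adjusted p = 0.174). Ctss, Manba, Arsb, Sgsh, Lipa and Sort1 were not tested.

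**Figure D4:**
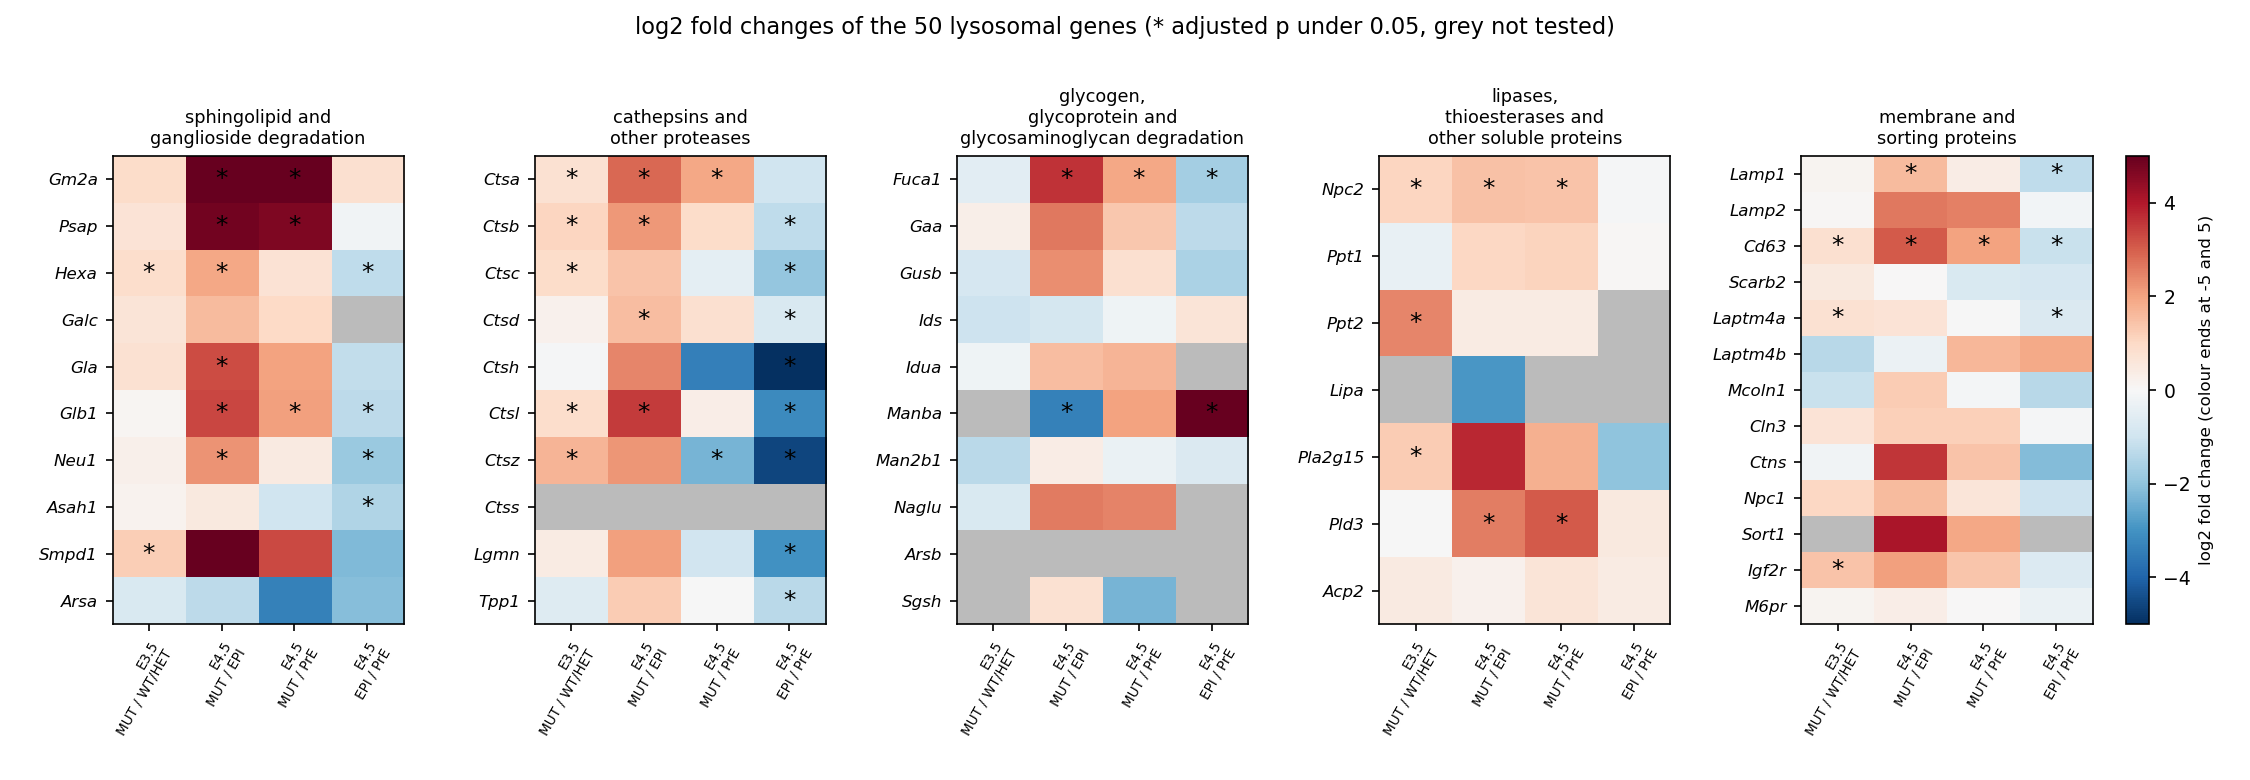
Log2 fold changes of the 50 genes (rows, by role group) in the 4 comparisons (columns), with colours ending at 5 in either direction, grey where a gene was not tested and a star at an adjusted p under 0.05. The MUT against EPI column has 15 genes starred as higher and Manba as lower, and the EPI against PrE column has 16 starred as lower and Manba as higher.

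The difference between stages was tested directly as an interaction, with E4.5 controls formed by summing the EPI and PrE cells of an embryo. The MUT effect was larger at E4.5 for 12 of 49 genes tested and smaller for 1, against 5.46% of 16410 genes called, 2.71% larger and 2.75% smaller. The median change was 0.80, against -0.07 over all genes. Gm2a changed most among the called genes, with a MUT effect 4.72 higher on the log2 scale at E4.5 (SE 0.37, adjusted p = 3.71e-07), followed by Psap (4.05, SE 0.44, adjusted p = 2.23e-05) and Fuca1 (3.15, SE 0.61, adjusted p = 0.00437). Pld3 (2.72, SE 0.29, adjusted p = 1.87e-05), Lamp2 (2.66, SE 0.60, adjusted p = 0.0132), Smpd1 (2.60, SE 0.55, adjusted p = 0.0085) and Glb1 (2.43, SE 0.61, adjusted p = 0.0239) came next. The levels behind these changes differed between genes. Lamp2 was 222 to 586 CPM in E3.5 WT/HET but 12.2 to 90.8 in EPI and 8.56 to 78.1 in PrE, and in MUT it was 240 to 661 at E3.5 and 327 and 101 at E4.5. Psap in MUT was 1528 to 3516 CPM at E3.5 and 6113 and 5081 at E4.5, while it was 1009 to 1905 CPM in E3.5 WT/HET and at most 339 in either E4.5 lineage. Ctsa, Cd63, Gla, Ctsd and Lamp1 changed by 1.51, 1.67, 1.83, 0.88 and 0.73 (adjusted p = 0.0101, 0.000289, 0.0463, 0.0255 and 0.0461).

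Ctsz went the other way between stages (-3.06, SE 0.65, adjusted p = 0.00899). It was above WT/HET in E3.5 MUT, while at E4.5 the control sums included PrE cells, in which it was 549 to 2025 CPM. Without embryo 8, 7 genes had a stage difference in place of 13. Glb1, Smpd1, Ctsd, Ctsz, Gla and Lamp1 were then lost (adjusted p = 0.142, 0.0724, 0.155, 0.0763, 0.142 and 0.134). Without embryo 3, Lamp2, Ctsa, Gla and Lamp1 were lost (0.228, 0.165, 0.101 and 0.131). Gla and Lamp1 were lost on leaving out any of 13 and 14 of the 19 embryos.

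**Figure D5:**
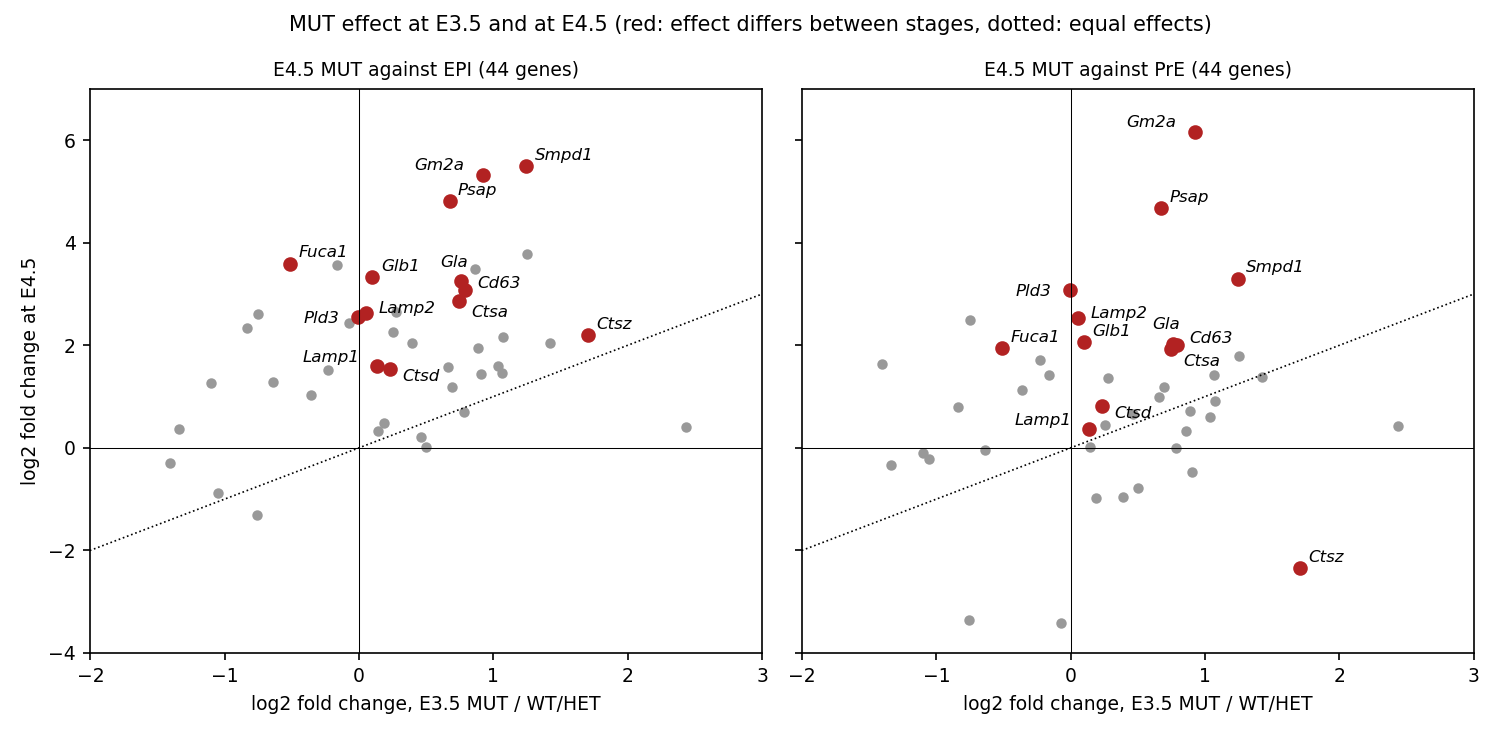
Log2 fold change of MUT at E3.5 (x axis) against that at E4.5 (y axis), relative to EPI in the left panel and PrE in the right, for the 44 genes with values in both, with a dotted line at equal effects. Red marks the 13 genes whose effect differed between stages, and Gm2a and Psap sit far above the line in both panels while Ctsz is below it against PrE.

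EPI and PrE of the same embryos differed for many of the 50 genes, mostly with PrE higher. Of 41 tested, 16 were lower in EPI and 1 was higher, against 9.81% of 9762 genes called, 5.2% lower and 4.61% higher, with a median log2 fold change (EPI over PrE) of -1.25, against 0.03 over all genes. Since the lineages were assigned from the same transcriptomes, these p-values describe classes drawn from the data. Of the proteases 8 of 9 were lower in EPI. Ctsz was 17.7 to 101 CPM in EPI and 549 to 2025 in PrE (-4.57, SE 0.49, adjusted p = 3.56e-05), and Ctsl was 219 to 628 and 1981 to 4557 CPM (-3.18, SE 0.29, adjusted p = 6.88e-06). The asparaginyl protease gene Lgmn was 10.7 to 116 CPM in EPI and 252 to 833 in PrE (-3.04, SE 0.47, adjusted p = 0.000689). Ctsc, Tpp1, Ctsb, Ctsh and Ctsd had log2 fold changes of -1.94, -1.35, -1.27, -5.79 and -0.76. Of 9 sphingolipid genes 4 were lower: Asah1, Neu1, Glb1 and Hexa (-1.49, -1.86, -1.30 and -1.25). Fuca1 (-1.68, adjusted p = 0.00486), Lamp1 (-1.26, adjusted p = 2.96e-06), Cd63 (-1.11, adjusted p = 0.000693) and Laptm4a (-0.74, adjusted p = 0.0432) were also lower in EPI. Manba, by contrast, was 150 to 247 CPM in EPI and 0.1 to 12.3 in PrE (5.38, SE 0.72, adjusted p = 0.000229), and had no count in any WT/HET embryo at E3.5. Psap, Npc2 and Lamp2 were -0.16, -0.07 and -0.12 and did not pass (adjusted p = 0.865, 0.882 and 0.954). Ctsh, at 0 to 202 CPM in PrE, was lost without embryo 1, 2, 4 or 7 (adjusted p = 0.0712, 0.156, 0.0993 and 0.121). With the embryo as a replicate block, 14 genes passed (1 higher, 13 lower), and Glb1, Neu1 and Ctsd did not (adjusted p = 0.062, 0.0924 and 0.0874). Without embryo 2, 9 genes were called, without embryo 7, 10, and without embryo 5, 11. Hexa was lost on leaving out any of 3 of the 6 embryos, Tpp1 any of 4, and Glb1, Ctsd and Laptm4a any of 5.

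Lists of related genes outside the 50 are set against the same backgrounds of all genes called, 6.18% at E3.5, 4.92% against EPI and 3.81% against PrE. At an unadjusted p under 0.05 the backgrounds were 2588 of 12075, 2455 of 12953 and 2015 of 12246 genes in the same order. DESeq2 called 1607, 1691 and 1219 of the genes tested. Of 37 other lysosomal hydrolases and cofactors, 29 were tested against EPI and 3 were higher in MUT. They included Fuca2, another fucosidase (4.21, adjusted p = 0.000626), and Smpdl3a, a phosphodiesterase (116 ± 11.8 CPM in MUT, 0 in EPI, adjusted p = 0.00416). Against PrE 4 of 31 were higher, Fuca2 among them (2.31, adjusted p = 0.0237), and at E3.5 1 of 30 was higher and 1 lower, a share near the background. Of 33 other membrane proteins, 3 of 26 were higher against EPI, led by Glmp (1.71, adjusted p = 0.0104), and 2 of 27 were higher and 2 lower at E3.5. Against PrE edgeR called 0 of 28, with 5 at an unadjusted p under 0.05, and DESeq2 called 2 higher and 1 lower. The machinery of mannose 6-phosphate tagging and sorting gave 1 call of 19 at E3.5 (Vps26a, a retromer subunit, 0.88, adjusted p = 0.0192), again near the background. Against EPI edgeR called 0 of its 19 genes (4 at an unadjusted p under 0.05, 2 lower by DESeq2), and against PrE 0 (1 unadjusted, 0 by DESeq2). Of the 3 cathepsin inhibitors tested at E4.5, Cstb was higher in MUT against EPI (1.34, adjusted p = 0.00391) and PrE (1.34, adjusted p = 0.0206), and Cst3 was lower than in PrE (298 ± 16.6 and 801 ± 125 CPM, -1.42, adjusted p = 0.00657). At E3.5 edgeR and DESeq2 called 0 of the 4 tested, with 0 at an unadjusted p under 0.05.

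The genes of TFEB, its relatives (MiT/TFE factors) and their regulators were not called higher in MUT. These are RNA levels, and the location of the proteins in the cell was not measured here. Of 8 genes for MiT/TFE factors and their regulators, edgeR called 0 of 6 at E3.5 (0 unadjusted, 0 by DESeq2). Against EPI it called 0 of 7, with 1 higher and 1 lower at an unadjusted p under 0.05 and 1 lower by DESeq2. Against PrE the 1 call was Tfec, which was 203 ± 164 CPM in PrE and 0 in MUT (adjusted p = 0.00719). Tfeb averaged 45.2 CPM in E4.5 MUT, 4.16 in EPI and 20.5 in PrE and did not pass (adjusted p = 0.187 and 0.429). Tfe3 averaged 39.7, 46.3 and 43.1 CPM in the same order (adjusted p = 0.931 and 0.98), and Mitf was 0 in E4.5 MUT.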

How the data were processed

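The authors deposited HTSeq counts of reads per gene for each cell, made from STAR alignments to mm10 per the labels, whole numbers with no normalization. The kit keeps no strand. Of the reads tallied, 32.3% mapped to several places, 8.65% were ambiguous between genes and 4.72% met no gene, and these were left out, which lowers overlapping genes such as Ctsd (34.4% of exon sequence shared), Ppt2, Arsb and Ctsa (17.4%). The 172 cells came from 19 embryos, by the study's sample sheet, and counts were summed per embryo and class. No doublet caller was run on these cells, which were picked singly by pipette, and no pair of cells correlated above 0.851.

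Sums were tested with edgeR 4.0.16 (R 4.3.3), quasi-likelihood with TMM scaling, filterByExpr and a prior count of 2. This test gives no standard error. Each SE printed is the absolute log2 fold change divided by the square root of the F statistic, so it is approximate. P was adjusted over all tested genes (Benjamini-Hochberg), with a threshold of 0.05. CPM is on 1 TMM scale over all sums, FPKM divides it by exon length (GENCODE on GRCm38), and fold changes come from pairwise fits, so they need not equal ratios of CPM. DESeq2 1.42.0, other scalings, filters and cell weights, WT controls only and leaving out each embryo were alternatives. Scripts were tested on simulated data. EPI and PrE sums share an embryo, and their deviations from the class means correlated by 0.0661, 0.0465, 0.00894, 0.0424, 0.0142 and 0.0473, so embryo as a replicate block was an alternative.

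Genes were named if called in a MUT comparison, the stage interaction or EPI against PrE, besides Gm2a, Hexa, Lamp2, partner pairs, the 5 highest and lowest by FPKM, and the leading called genes of each list (other hydrolases, other membrane proteins, mannose 6-phosphate sorting, cathepsin inhibitors, MiT/TFE factors, and epiblast, PrE, trophectoderm and giant cell markers). Some called genes of these lists are not reported here. The genes and lists were chosen with earlier results of these data known.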

Additional observations from a re-analysis of the deposited data

Results flagged for a closer look

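The effect of OCT4 loss differed between stages for 13 genes by the interaction test. On the log2 scale the difference of effects was 4.72 for Gm2a, 4.05 for Psap, 3.15 for Fuca1, 2.72 for Pld3, 2.66 for Lamp2, 2.60 for Smpd1, 2.43 for Glb1, 1.83 for Gla, 1.67 for Cd63, 1.51 for Ctsa, 0.88 for Ctsd and 0.73 for Lamp1, each larger at E4.5, and -3.06 for Ctsz. Trophectoderm markers moved the same way, with 6 of 14 larger at E4.5, 4 of 14 PrE markers were smaller, and the part of these was not tested.

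Single embryos stood apart from the rest of their class in 10 of 112 groups looked at, where chance sets apart about 1 in 20. Embryo 2 had 45.2 CPM of Gla and 35.9 of Pla2g15 in EPI and 300.5 of Ctsd in PrE. In E3.5 MUT, Neu1 was lowest in embryo 10 (14.5 CPM), Ctsa lowest in embryo 19 (573.9) and Manba was counted in embryo 12 alone (0.381). In EPI, Ctsh was 7.06 CPM in embryo 5, Tpp1 118.9 in embryo 1 and Ppt2 3.27 in embryo 4. In WT/HET, Laptm4a was 181.5 CPM in embryo 16.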

How the results depend on the processing

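No called gene of the 50 changed direction under any alternative. At E3.5, 8 genes passed with scaling by total counts and 6 against the WT embryos alone, and leaving out each embryo in turn gave 8 to 14. Total counts moved the median of all genes from -0.02 to -0.17 and the calls over all genes from 386 higher and 360 lower to 247 and 399. With cells weighted equally the calls were 425 and 928. Lamp2 at E3.5 turned sign at -0.13 (total counts), -0.23 (cells weighted equally), -0.026 (WT controls) and -0.28 to 0.25 with an embryo left out. Against EPI, WT controls gave 3 genes and leaving out an embryo 13 to 17. Against PrE, DESeq2 gave 17, WT controls 0 and leaving out an embryo 5 to 11. For EPI against PrE leaving out an embryo gave 9 to 16, and the replicate block 14. The stage difference gave 8 with WT controls and 7 to 14 with an embryo left out. Over all genes DESeq2 called 1607, 1691, 1219, 1447 and 1850 in the 5 comparisons in this order, against 746, 637, 466, 958 and 896. Cells weighted equally gave 1353, 1479, 1097, 1824 and 1445. WT controls gave 435 at E3.5, 48 against EPI, 27 against PrE and 470 for the stage difference. Where the left-out embryo leaves 1 MUT sum, it is assumed to vary like the controls. The causes were not tested. The 2 E4.5 MUT embryos and genes near 0 counts limit what could be detected.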
